A study of Mus musculus with 4 samples.

Results

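The ESCRT and exosome release machinery was followed through the skull vault (calvaria) of mouse embryos as 49 genes, chosen by name from a list of symbols, of 55487 gene IDs in the count table. Through the GENCODE annotation of GRCm38, each of the 49 symbols was matched to 1 Ensembl ID of the count table, and all 49 passed the filter on low counts (at least 10 counts, filterByExpr). Poly(A) RNA had been sequenced from frontal bone (2 libraries) and from parietal and interparietal bone taken as 1 tissue (2 libraries), all at E14.5 (embryonic day). The labels give no strain, sex, genotype, treatment, litter or number of embryos, nor whether libraries of 1 group are from different animals, so every p-value below measures the spread between these libraries, which may be technical. The study concerns extracellular vesicles that carry citrate and promote biomineralization, and the comparison is of frontal with parietal-interparietal bone.

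Exosomes are vesicles that form inside late endosomes and leave the cell when such an endosome fuses with the plasma membrane. The ESCRT complexes act in order on the endosome membrane: ESCRT-0 and ESCRT-I gather ubiquitinated cargo, ESCRT-II links them to ESCRT-III, and ESCRT-III filaments pinch off the vesicle before the VPS4 ATPase takes them apart. A side branch through syndecans, syntenin and ALIX feeds cargo to ESCRT-III, ceramide made by neutral sphingomyelinases can bud vesicles without ESCRT, and Rab GTPases and SNAREs carry the endosome to the plasma membrane. Bone-forming cells release vesicles into their matrix, and the same ESCRT proteins also serve cell division and membrane repair in every cell.

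The libraries held between 24069177 and 35555013 counts, of which low values were mostly even, so a count may stand for less than 1 sequenced fragment. Osteoblast genes were present, with Col1a1 between 967 and 1503 CPM (counts scaled to a common library size, TMM-corrected) and Runx2 between 10.7 and 16.3 CPM, while Bglap and Dmp1, markers of mature bone cells, stayed under 1 CPM in all 4 libraries. Of 12 osteoblast markers 2 were higher and 2 lower, with sums of 3817 to 3890 CPM in frontal and 4814 to 4853 CPM in parietal-interparietal libraries. RNA of other tissues was also present, and the marker sums of each tissue below did not overlap between the groups. For comparison, 12.7% of all genes tested were called higher or lower (adjusted p under 0.05, test given below). Of all genes tested, 57.3% did not overlap in level between the groups. Of 16 muscle markers, 15 were tested and 11 were lower in frontal libraries and 0 higher, and their summed level was 2036 to 2176 CPM in frontal and 2770 to 2794 CPM in parietal-interparietal libraries. Tnnc2 was the 1 muscle marker at 0 in any library. Of 18 neural markers 9 were higher and 4 lower, and their sums were 1186 to 1224 CPM in frontal and 1111 to 1121 CPM in parietal-interparietal libraries. These sums hide opposite differences. Neurod2, Neurod6, Tbr1 and Eomes, transcription factor genes of the developing cerebral cortex, were at 26.7 to 53.6 CPM in frontal and 0.0737 to 1.51 CPM in parietal-interparietal libraries, while the neurofilament genes Nefl and Nefm were 2.43-fold and 2.26-fold lower in frontal libraries. Of 11 meningeal markers 0 were higher and 6 lower (976 to 1011 against 1308 to 1314 CPM), and of 11 blood and macrophage markers 0 were higher and 4 lower (9639 to 11360 against 13470 to 13570 CPM). Of 7 epidermal markers 0 were higher and 2 lower (624 to 667 against 710 to 722 CPM), and of 6 endothelial markers 1 was higher and 1 lower (369 to 370 against 428 to 436 CPM). In lists this small, so few calls are by themselves no result. The part of these tissues in the differences below was not tested, and in such bulk libraries fewer cells of a type and less RNA per cell cannot be told apart.

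Of the 49 members, 5 were higher and 2 lower in frontal libraries and 42 were not called (edgeR quasi-likelihood test, two-sided, Benjamini-Hochberg adjusted p under 0.05 over 20947 genes). Smpd2, Mvb12a, Chmp1a, Chmp4b and Ykt6 were higher, and Vta1 and Pdcd6ip were lower. The share called, 14.3%, was close to the 12.7% of all genes tested, of which 6.25% were called higher and 6.44% lower, so the count by itself is no result about these genes. The groups did not overlap for 27 members, 20 with both frontal libraries above and 7 with both below, which is 55.1% against 57.3% of all genes tested (28.9% above and 28.4% below). The differences were small. The median absolute log2 fold change of the members was 0.15, against 0.28 over all genes tested, and the median signed value was 0.09, against 0.006. That median was 0.03 without frontal library 2 (−0.01 over all genes) and 0.04 with scaling by the total count only (−0.05 over all genes). Summed over the members, the level was 2715 and 2784 CPM in frontal libraries 1 and 2, against 2617 and 2595 CPM in parietal-interparietal libraries 1 and 2.

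A fit that leaves out 1 library takes its spread from the pair left whole, and the lone library is assumed to vary like that pair. Without frontal library 1 or 2, where the spread came from the closer parietal-interparietal pair, 24.2% and 32.6% of all genes and 36.7% and 42.9% of the members were called, the 7 among them, so these fits say little about the stability of the calls. Without parietal-interparietal library 1 only Smpd2 stayed called, with edgeR adjusted p-values of the 7 genes between 0.0271 and 0.479. Without parietal-interparietal library 2 none stayed called (0.0544 to 0.332), nor with the 2 parietal-interparietal libraries summed as 1 sample (0.0864 to 0.457). Each of the 7 genes kept its sign in all 11 alternative fits. The groups did not overlap for any of the 7, so leaving out or summing libraries could hardly reverse a sign. The kept signs are therefore no evidence that the calls are stable. The frontal libraries lay further apart than the parietal-interparietal libraries for 32 of the 49 members, with a median absolute log2 difference within the pair of 0.16 for frontal and 0.07 for parietal-interparietal. The same held for 11033 of the 16777 tested genes that averaged 1 CPM or more (medians 0.20 and 0.11), so it is a trait of the libraries and not of the members.

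**Figure D1:**
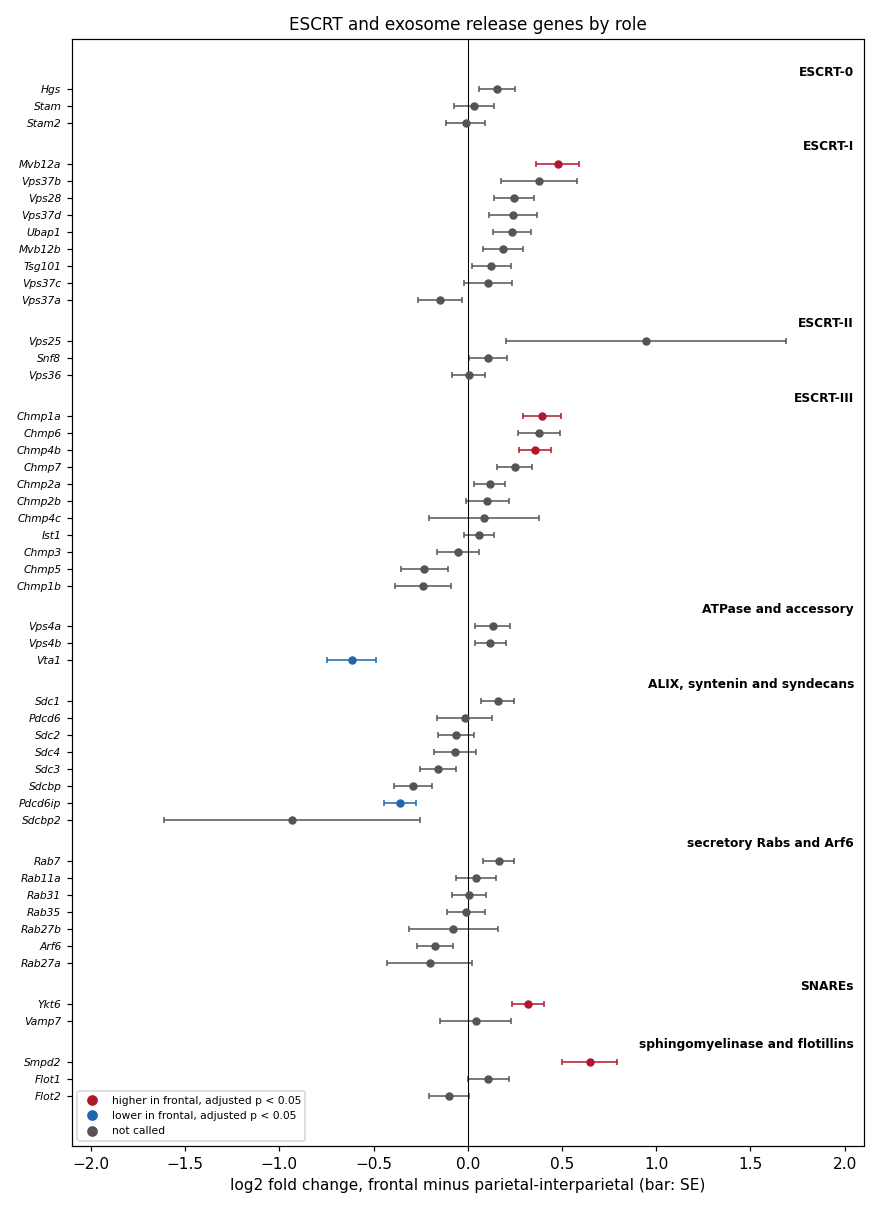
Log2 fold change, frontal minus parietal-interparietal, of the 49 members by role (points; bars are the standard error, n = 2 libraries a group). Red and blue points mark the 5 members called higher and the 2 called lower in frontal libraries, and grey points the 42 not called. Vps25 and Sdcbp2 have the widest bars.

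The 250 bases before the RefSeq start of the 2 members with the largest called rise and the 2 with the largest called fall are shown so that the promoters of genes that moved in opposite directions can be set side by side (RefSeq, GRCm38.p6, gene strand, 5′ to 3′). Capitals mark matches, on either strand, to 5 motifs: the E-box CACGTG, the GC box GGGCGG, the CCAAT box CCAAT, the cAMP response element TGACGTCA and the TATA box TATAAA.
Smpd2, chr10:41490341-41490590, minus strand: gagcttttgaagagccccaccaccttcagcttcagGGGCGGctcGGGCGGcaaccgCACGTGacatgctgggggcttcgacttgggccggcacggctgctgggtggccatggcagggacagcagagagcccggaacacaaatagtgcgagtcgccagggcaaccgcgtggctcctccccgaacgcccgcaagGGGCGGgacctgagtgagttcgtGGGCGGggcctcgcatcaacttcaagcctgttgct
Mvb12a, chr8:71542680-71542929, plus strand: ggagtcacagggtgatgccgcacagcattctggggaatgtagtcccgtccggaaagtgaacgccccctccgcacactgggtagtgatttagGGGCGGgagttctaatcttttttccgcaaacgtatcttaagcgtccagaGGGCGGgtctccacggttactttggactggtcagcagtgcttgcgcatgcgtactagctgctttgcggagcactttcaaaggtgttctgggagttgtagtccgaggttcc
Vta1, chr10:14705490-14705739, minus strand: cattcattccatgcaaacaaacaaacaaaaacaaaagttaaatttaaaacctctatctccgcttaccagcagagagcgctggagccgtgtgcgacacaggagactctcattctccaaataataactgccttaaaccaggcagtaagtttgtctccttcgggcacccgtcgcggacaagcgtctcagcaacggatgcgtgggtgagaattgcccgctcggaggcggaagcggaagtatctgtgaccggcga
Pdcd6ip, chr9:113708260-113708509, minus strand: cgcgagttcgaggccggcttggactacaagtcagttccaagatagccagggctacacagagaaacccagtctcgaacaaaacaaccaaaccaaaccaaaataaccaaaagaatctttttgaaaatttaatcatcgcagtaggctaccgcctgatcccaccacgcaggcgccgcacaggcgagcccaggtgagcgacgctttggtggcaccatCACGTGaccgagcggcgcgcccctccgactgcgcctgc
No marked matches overlapped in these 4 windows. The Smpd2 window held 4 GC boxes and 1 E-box, the Mvb12a window 2 GC boxes, the Pdcd6ip window 1 E-box, and the Vta1 window none of the 5 motifs. Of the other called members, all higher, the Chmp1a window held 5 GC boxes, the Ykt6 window 1 and the Chmp4b window none. The Chmp4b window (chr2:154656776-154657025, plus strand) lies inside the gene as GENCODE annotates it, from 154651705 on. In these RefSeq windows the GC box did not mark every called rise, and the window at the GENCODE start of Chmp4b was not examined. RefSeq windows were found for 35 of the 49 members (39 windows). The GC box was in 61.5% of the members' windows and in 32.7% of all 32851 windows, the E-box in 7.69% and 6.02%, the CCAAT box in 30.8% and 33.8%, the TATA box in 5.13% and 12.4%, and the cAMP response element in 0 of the members' windows and 1.55% of all. The members' windows had a median of 61.6% G and C bases, against 52.4% over all windows. These matches describe letters in a window and not sites of binding.

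ESCRT-0, the cargo-binding complex of Hgs and the adaptors Stam and Stam2, had no called member. Hgs, whose product binds ubiquitin and endosomal lipid, was at 53.8 and 49.9 CPM in frontal libraries 1 and 2, against 47.1 and 46.0 CPM in parietal-interparietal libraries 1 and 2. Both frontal libraries were above both others, by a log2 fold change of 0.15 ± 0.09 (SE, edgeR adjusted p = 0.336). Stam was at 30.4 and 33.2 CPM in frontal libraries, against 31.4 and 30.6 CPM in parietal-interparietal libraries, and Stam2 averaged 31.2 ± 0.521 and 31.4 ± 0.901 CPM (SD, n = 2 each). The groups overlapped for both adaptors. Per kilobase of exon, Hgs was the highest of the 3, at 17.4 CPM per kb in frontal and 15.6 CPM per kb in parietal-interparietal libraries, and the adaptors lay between 3.70 and 5.23 CPM per kb. GENCODE lists a second ID named Hgs over 97.2% of these exon bases. This second ID has no row in the count table. The annotation release used for counting is not given, so the level of Hgs remains uncertain.

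ESCRT-I, which takes cargo over from ESCRT-0, had 8 of 9 members above 0 in log2 fold change, of which 1 was called higher in frontal libraries. Over all genes tested 50.7% were above 0. The called member was Mvb12a (ENSMUSG00000031813, chromosome 8, 71542922 to 71548085), a small subunit that varies between forms of the complex. It was at 29.5 and 27.6 CPM in frontal libraries 1 and 2, against 20.99 and 20.01 CPM in parietal-interparietal libraries 1 and 2. The groups stood clearly apart, and the gene was 1.39-fold higher in frontal libraries (edgeR log2 fold change 0.48 ± 0.11, adjusted p = 0.0227, n = 2 each). Its call was lost without parietal-interparietal library 1 (adjusted p = 0.193), without library 2 (adjusted p = 0.29) and with the pair summed (adjusted p = 0.26).

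Ubap1, a subunit that commits ESCRT-I to endosomal sorting, was at 62.0 and 62.5 CPM in frontal libraries, against 49.3 and 56.4 CPM in parietal-interparietal libraries (edgeR log2 fold change 0.23 ± 0.10, adjusted p = 0.155). Both frontal libraries were above both others without a call. Tsg101, the ubiquitin-binding core of ESCRT-I, was at 85.9 and 102 CPM in frontal and 90.02 and 82.4 CPM in parietal-interparietal libraries, and the groups overlapped. It was the highest of the complex per length in both groups, at 34.4 ± 4.18 and 31.6 ± 1.97 CPM per kb. Vps28, the other invariant subunit, was at 57.9 ± 6.83 and 48.9 ± 2.14 CPM (adjusted p = 0.171). Of the 4 alternative VPS37 subunits, Vps37a was the 1 below 0, at −0.15 ± 0.12 log2 units, and Vps37b, Vps37c and Vps37d had values of 0.38 ± 0.20, 0.11 ± 0.13 and 0.24 ± 0.13, none called. Without strand information, reads of Vps37b and of Hip1r on the opposite strand cannot be told apart where they overlap, over 32.9% of the Vps37b exon bases, and Hip1r was itself higher in frontal libraries (log2 fold change 0.50 ± 0.12, adjusted p = 0.0241).

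ESCRT-II, the bridge to ESCRT-III, had no called member, and the groups overlapped for all 3. Snf8 was at 82.8 and 70.9 CPM in frontal and 69.0 and 73.5 CPM in parietal-interparietal libraries, with groups that overlapped (edgeR log2 fold change 0.11 ± 0.10, adjusted p = 0.541). Vps36, which binds ubiquitin and lipid, was at 67.0 ± 1.45 and 66.7 ± 0.463 CPM (log2 fold change 0.01 ± 0.09). Vps25, the remaining subunit, stood far below its partners, at 1.95 and 0.596 CPM in frontal and 1.02 and 0.295 CPM in parietal-interparietal libraries. The annotation puts 67.2% of its exon bases inside exons of Ramp2 on the same strand, a receptor partner gene at 40.7 to 47.4 CPM in frontal and 46.7 to 50.9 CPM in parietal-interparietal libraries. How the counting treated reads that lie in both genes is not given in the sources used here, so the level of Vps25 is uncertain and its log2 fold change of 0.94 ± 0.74 carries no call (adjusted p = 0.462).

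ESCRT-III, whose CHMP proteins form the filaments that cut the vesicle neck, had 2 of 11 members higher, 0 lower and 9 not called. That is 18.2% called, against 12.7% of all genes tested. With so few genes in a role, the counts called by role are by themselves no result. Chmp4b (ENSMUSG00000038467, chromosome 2, 154651705 to 154694785), the main filament subunit, was at 106 and 107.5 CPM in frontal libraries 1 and 2, against 80.6 and 86.3 CPM in parietal-interparietal libraries 1 and 2. The frontal libraries were almost equal and well above the others, and the gene was 1.28-fold higher (edgeR log2 fold change 0.35 ± 0.08, adjusted p = 0.0212). Chmp1a (ENSMUSG00000000743, chromosome 8, 123204264 to 123212763), a late subunit that recruits VPS4, was at 83.8 and 72.4 CPM in frontal and 60.4 and 58.4 CPM in parietal-interparietal libraries. The groups did not overlap, and it was 1.31-fold higher (0.39 ± 0.10, adjusted p = 0.0266). Chmp4b and Chmp1a lost their calls without parietal-interparietal library 1 (adjusted p = 0.426 and 0.248), without library 2 (0.232 and 0.332) and with the pair summed (0.372 and 0.326).

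Chmp6, which passes the signal from ESCRT-II to CHMP4, missed the threshold narrowly (edgeR adjusted p = 0.0517). It was at 34.8 and 31.2 CPM in frontal and 25.2 and 25.5 CPM in parietal-interparietal libraries (log2 fold change 0.38 ± 0.11), and both frontal libraries were above both others. Chmp6 was further from a call with scaling by the total count only (edgeR adjusted p = 0.084) and with DESeq2 (adjusted p = 0.0946). For Chmp7, which recruits ESCRT-III to the nuclear envelope, the log2 fold change was 0.25 ± 0.09 (adjusted p = 0.112). At the other end, Chmp1b and Chmp5 had values of −0.24 ± 0.15 and −0.23 ± 0.12 with both frontal libraries below both others, and neither was called. Chmp5, a partner of the VPS4 cofactor encoded by Vta1, was at 34.1 and 43.8 CPM in frontal and 46.2 and 45.4 CPM in parietal-interparietal libraries. Of the others, Chmp2a, Chmp2b and Ist1 lay between 0.06 and 0.12 log2 units without overlap of the groups, and Chmp3 and Chmp4c overlapped.

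Levels within ESCRT-III spanned a wide range per length. Chmp2a was at 121 and 131 CPM in frontal libraries, against 117 and 117 CPM in parietal-interparietal libraries, without overlap and without a call (edgeR log2 fold change 0.12 ± 0.08, adjusted p = 0.416). Per kilobase it was the highest of all 49 members, at 109 ± 6.19 CPM per kb in frontal and 100.4 ± 0.0482 CPM per kb in parietal-interparietal libraries, and Chmp4b ranked 3 in frontal and 4 in parietal-interparietal libraries, at 52.7 ± 0.515 and 41.2 ± 1.97 CPM per kb. Chmp4c, a paralog of Chmp4b known in humans for the abscission checkpoint, was the lowest of all, at 0.340 ± 0.0808 and 0.321 ± 0.000712 CPM per kb. Chmp4b exceeded it by 185 and 134 times per length in frontal and 124 and 132 times in parietal-interparietal libraries. These ratios depend on the annotated exons, 10087 bases for Chmp4c and 2027 for Chmp4b. Before division by length, Chmp4c averaged 3.43 and 3.24 CPM and Chmp4b 106.7 and 83.4 CPM in frontal and parietal-interparietal libraries. By CPM, Vps25 and Sdcbp2 were lower than Chmp4c in both groups. The ratio of Chmp1a to Chmp1b was 5.42 and 4.05 in frontal libraries and 2.88 and 3.17 in parietal-interparietal libraries, per length. It did not overlap between the groups, which was so for 5 of 11 paralog pairs compared in this way. Those pairs include the ones with Chmp1a, Chmp4b and Mvb12a, which were called as single genes. Such ratios were not computed over other genes. In level, 57.3% of all genes tested did not overlap, so the count of pairs is by itself no result. Chmp2a exceeded Chmp2b by 7.95 and 9.30 times in frontal and 8.59 and 8.5 times in parietal-interparietal libraries, with overlap.

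**Figure D2:**
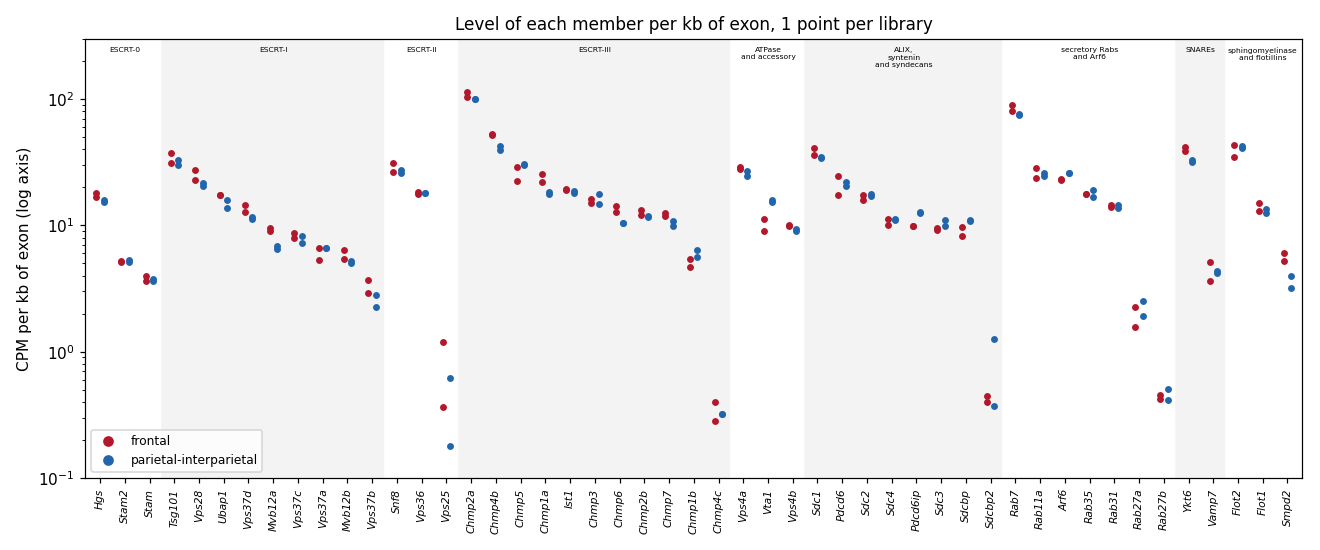
CPM per kb of exon (log axis) of the 49 members by role, with 1 point per library, frontal in red left of parietal-interparietal in blue. Chmp2a, Rab7 and Chmp4b are the highest in frontal libraries at 109, 85.4 and 52.7 CPM per kb, and Chmp4c, Sdcbp2, Rab27b and Vps25 lie under 1 CPM per kb on average in both groups.

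The VPS4 group held 1 called member, which was lower. Vta1 (ENSMUSG00000019868, chromosome 10, 14654755 to 14705560), which encodes LIP5, the activator of VPS4, was at 20.4 and 25.7 CPM in frontal libraries 1 and 2, against 36.2 and 34.6 CPM in parietal-interparietal libraries 1 and 2. Both frontal libraries were well below both others, and the gene was 1.53-fold lower (edgeR log2 fold change −0.62 ± 0.13, adjusted p = 0.0119), the smallest adjusted p of the 49. It lost its call without parietal-interparietal library 1 (adjusted p = 0.105), without library 2 (adjusted p = 0.0544) and with the pair summed (adjusted p = 0.0864). An antisense gene, Gm16234, lies over 13.5% of the Vta1 exon bases and held 3 and 7 counts in frontal and 5 and 11 counts in parietal-interparietal libraries. The 2 ATPase genes were not called. Vps4a was at 72.7 and 71.1 CPM in frontal and 68.6 and 62.6 CPM in parietal-interparietal libraries (log2 fold change 0.13 ± 0.09, adjusted p = 0.398), and Vps4b at 88.1 and 89.7 against 83.2 and 80.5 CPM (0.12 ± 0.08, adjusted p = 0.403). Their ratio per length, Vps4a over Vps4b, was 2.91 and 2.80 in frontal and 2.91 and 2.75 in parietal-interparietal libraries. Vta1 itself was at 10.2 ± 1.64 CPM per kb in frontal and 15.6 ± 0.515 CPM per kb in parietal-interparietal libraries, and Vps4b at 9.98 ± 0.132 and 9.19 ± 0.212 CPM per kb.

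In the syndecan, syntenin and ALIX branch, 7 of 8 members were below 0 in log2 fold change, 1 of them called, where 10334 of all 20947 genes tested were below 0. Pdcd6ip (ENSMUSG00000032504, chromosome 9, 113651744 to 113708259), which encodes ALIX, the adaptor between syntenin and CHMP4, was at 67.7 and 68.9 CPM in frontal libraries 1 and 2, against 87.0 and 88.5 CPM in parietal-interparietal libraries 1 and 2. Replicates were nearly equal in both groups, and the gene was 1.29-fold lower in frontal libraries (edgeR log2 fold change −0.36 ± 0.08, adjusted p = 0.0197). Its binding partner Chmp4b was higher, as given above. Pdcd6ip lost its call without parietal-interparietal library 1 (adjusted p = 0.283), without library 2 (adjusted p = 0.321) and with the pair summed (adjusted p = 0.319).

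Sdcbp, which encodes syntenin, the link between syndecan tails and ALIX, was at 56.6 and 66.6 CPM in frontal and 74.8 and 76.1 CPM in parietal-interparietal libraries. Both frontal libraries were below both others, with no call (edgeR log2 fold change −0.29 ± 0.10, adjusted p = 0.0873). Its log2 fold change was negative in all 11 alternatives, which the lack of overlap made nearly certain. It was called lower only in the fits without frontal library 1 (adjusted p = 0.0377) and without frontal library 2 (adjusted p = 6.33e-08), where calls were more frequent over all genes, and not in the other 9, with adjusted p-values of 0.45 and 0.502 when parietal-interparietal library 1 or 2 was left out and 0.506 when they were summed. Its paralog Sdcbp2 was at 0.556 and 0.625 CPM in frontal and 1.76 and 0.516 CPM in parietal-interparietal libraries, where library 1 set the mean. Pdcd6, which encodes the calcium-binding ALIX partner ALG-2, was at 48.5 and 69.2 CPM in frontal and 57.2 and 61.9 CPM in parietal-interparietal libraries. Its frontal libraries lay on either side of the others, and it was called higher without frontal library 1 and lower without frontal library 2 (log2 fold changes 0.22 and −0.31), against −0.01 ± 0.15 with all 4 libraries.

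The 4 syndecans, membrane proteoglycans that load cargo through syntenin, were not called. Sdc1 was at 156 and 137 CPM in frontal and 133 and 130 CPM in parietal-interparietal libraries (edgeR log2 fold change 0.16 ± 0.09, adjusted p = 0.283), and was the 1 member of the branch above 0. Sdc3, the syndecan most abundant in neural tissue, was at 57.4 and 54.8 CPM in frontal and 65.6 and 59.4 CPM in parietal-interparietal libraries (log2 fold change −0.16 ± 0.10, adjusted p = 0.33). The neural markers were split in direction, with 9 of 18 higher and 4 lower in frontal libraries, and the part of neural tissue in Sdc3 was not tested. Sdc2 and Sdc4 had values of −0.06 ± 0.09 and −0.07 ± 0.11, and their groups overlapped. Per length Sdc1 led the branch at 38.5 ± 3.59 CPM per kb in frontal and 34.5 ± 0.513 CPM per kb in parietal-interparietal libraries, and exceeded Sdc2 by 2.34 and 2.27 times in frontal and 1.97 and 1.98 times in parietal-interparietal libraries, without overlap.

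**Figure D3:**
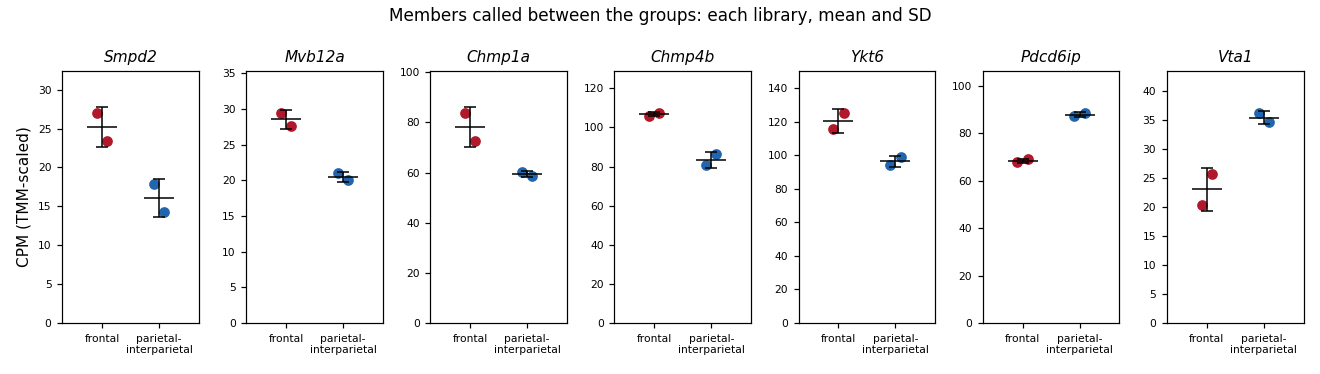
CPM (TMM-scaled, axes from 0) of the 7 called members in each library (points), with the mean and SD (n = 2) of frontal libraries at left and parietal-interparietal libraries at right. The groups do not overlap in any panel, with Smpd2, Mvb12a, Chmp1a, Chmp4b and Ykt6 higher and Pdcd6ip and Vta1 lower in frontal libraries.

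None of the 7 small GTPases was called. Rab7, which drives late endosomes and was the second highest member per length, was at 210 and 235 CPM in frontal and 201 and 197 CPM in parietal-interparietal libraries (edgeR log2 fold change 0.16 ± 0.08, adjusted p = 0.233). Both frontal libraries were above both others. The pseudogene Rab7-ps1 held 67 and 53 counts in frontal and 24 and 52 counts in parietal-interparietal libraries, against 6052 and 8285 and against 4907 and 5346 counts for Rab7. Arf6, which acts with phospholipase D in the syntenin branch, was at 35.1 and 35.7 CPM in frontal and 39.7 and 40.1 CPM in parietal-interparietal libraries, with close replicates, no overlap and no call (−0.17 ± 0.10, adjusted p = 0.287). Rab35 and Rab11a, which dock recycling and late endosomal vesicles, and Rab31, which sorts receptors into exosomes, had values between −0.01 and 0.04 log2 units with overlapping groups. The secretory Rab27 pair was scarce. Rab27a was at 6.08 and 8.72 CPM in frontal and 9.70 and 7.41 CPM in parietal-interparietal libraries, and Rab27b at 4.87 and 4.52 against 4.46 and 5.42 CPM, so that no order of the bones could be read for either.

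Of the SNAREs, Ykt6 (ENSMUSG00000002741, chromosome 11, 5955693 to 5967780), a lipid-anchored SNARE used in exosome release, was higher in frontal libraries. It was at 115 and 125 CPM there, against 94.2 and 98.8 CPM in parietal-interparietal libraries, a 1.247-fold difference without overlap (edgeR log2 fold change 0.32 ± 0.09, adjusted p = 0.0357). With no scaling beyond the total count its call was lost (adjusted p = 0.0799), as it was without parietal-interparietal library 1 (adjusted p = 0.479), without library 2 (adjusted p = 0.327) and with the pair summed (adjusted p = 0.457). Vamp7, a late endosomal SNARE, was at 9.21 and 13.1 CPM in frontal and 11.1 and 10.6 CPM in parietal-interparietal libraries, with overlap (0.04 ± 0.19).

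The largest called rise was that of Smpd2 (ENSMUSG00000019822, chromosome 10, 41485642 to 41490369), a neutral sphingomyelinase, the enzyme class that makes ceramide. It was at 27.0 and 23.3 CPM in frontal libraries 1 and 2, against 17.8 and 14.3 CPM in parietal-interparietal libraries 1 and 2. Libraries of each group differed, yet the groups did not overlap, and the gene was 1.57-fold higher (edgeR log2 fold change 0.65 ± 0.15, adjusted p = 0.0165). Without parietal-interparietal library 1 the value was 0.81 (adjusted p = 0.0271), and without library 2 it was 0.49 and not called (adjusted p = 0.242), as with the pair summed (adjusted p = 0.0989). Mical1 overlaps 20.3% of the Smpd2 exon bases on the opposite strand, and it was at 13.9 and 11.9 CPM in frontal and 14.0 and 12.8 CPM in parietal-interparietal libraries (−0.05 ± 0.15). The flotillins, scaffold proteins of membrane rafts often used as vesicle markers, were not called. Flot1 was at 43.6 and 37.5 CPM in frontal and 36.3 and 38.9 CPM in parietal-interparietal libraries (0.11 ± 0.11), and Flot2 at 95.6 and 118 against 112 and 117 CPM (−0.10 ± 0.11).

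Summed by role, ESCRT-I averaged 385 ± 1.44 CPM over frontal libraries and 342 ± 5.32 CPM over parietal-interparietal libraries, and ESCRT-III at 687 ± 6.98 and 619 ± 14.0 CPM (mean ± SD, n = 2 each). The syndecan, syntenin and ALIX branch summed to 478 ± 0.753 CPM over frontal libraries, below the 508 ± 2.82 CPM over parietal-interparietal libraries. The groups did not overlap for these 3 sums, nor for ESCRT-0 (115 ± 0.220 and 109 ± 2.28 CPM) and the SNAREs (131 ± 9.70 and 107 ± 2.97 CPM). The sums of the other 4 roles overlapped. A sum follows its most abundant members, and only single genes were tested.

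Other genes of the pathway, from 3 lists with 71 entries, were also mostly not called. Over all genes tested 12.7% were called, and the median log2 fold change was 0.006. The counts called in these lists are by themselves no result about their genes. Of 25 further ESCRT partners 1 was higher and 3 lower, with a median log2 fold change of −0.17. Ndfip1, an activator of NEDD4-family ubiquitin ligases, was at 52.8 and 68.0 CPM in frontal and 87.4 and 85.0 CPM in parietal-interparietal libraries (1.43-fold lower, edgeR adjusted p = 0.0183). Tom1l2, a relative of the cargo adaptor TOM1, was 1.35-fold lower (51.0 ± 2.45 against 68.9 ± 1.29 CPM, adjusted p = 0.0122), Ulk3, a kinase that acts on ESCRT-III, was 1.41-fold lower (10.1 ± 0.176 against 14.2 ± 0.0727 CPM, adjusted p = 0.0472), and the ligase gene Nedd4l was 1.33-fold higher (70.9 ± 8.41 against 53.2 ± 0.869 CPM, adjusted p = 0.027). Of 36 other regulators of vesicle release 1 was higher and 2 lower, with a median of −0.08. Sytl2, a RAB27 effector, was 1.38-fold lower at 22.2 ± 1.20 against 30.7 ± 0.655 CPM (adjusted p = 0.0226). Pld1, a phospholipase D, was at 12.3 and 8.21 CPM in frontal and 16.4 and 16.3 CPM in parietal-interparietal libraries (1.6-fold lower, adjusted p = 0.0409), and the SNARE gene Vamp8 was 1.27-fold higher (85.7 ± 9.86 against 67.6 ± 0.643 CPM, adjusted p = 0.0496). Of 10 tetraspanins of vesicles, Cd82 was higher (32.0 and 32.0 CPM in frontal and 24.2 and 24.8 CPM in parietal-interparietal libraries, 1.31-fold, adjusted p = 0.0401) and 9 were not called. The members of these lists were not followed singly through the alternatives.

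**Figure D4:**
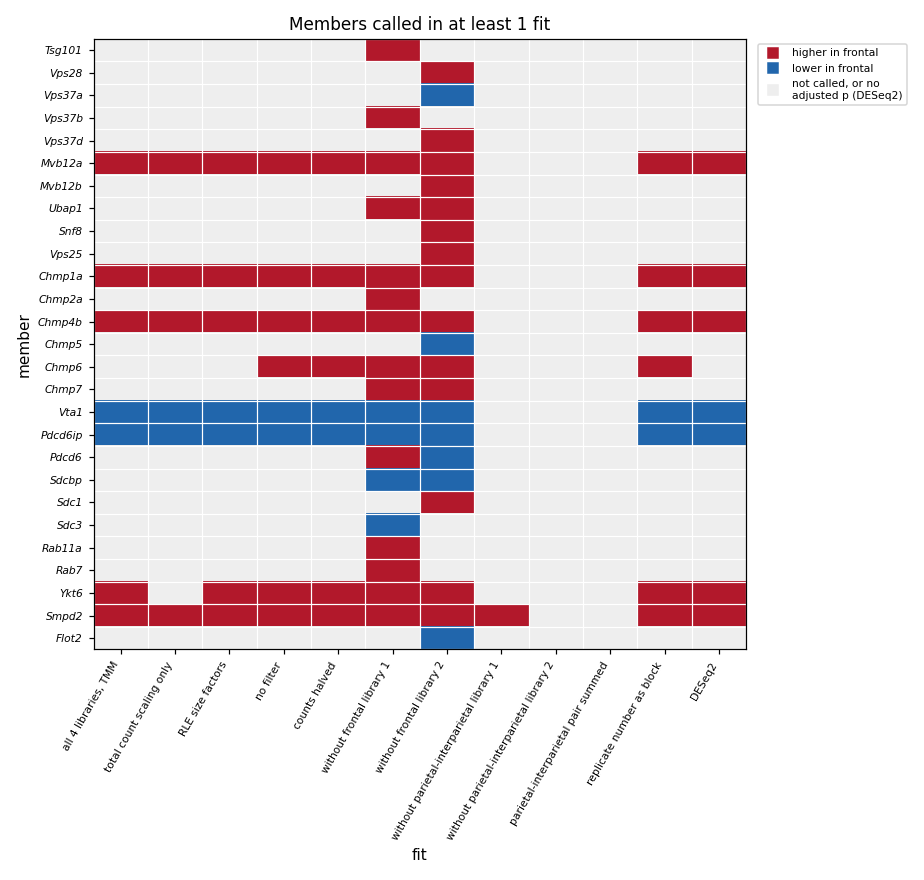
Calls (edgeR or DESeq2 adjusted p under 0.05) of the 27 members called in at least 1 of 12 fits, by fit (columns) and member (rows, by role), red for higher and blue for lower in frontal libraries. Calls are most frequent without either frontal library, where 14 members are higher and 4 or 7 lower, and no member is called with the pair summed or without parietal-interparietal library 2.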

How the data were processed

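Poly(A) RNA of 2 frontal and 2 parietal-interparietal libraries was analysed from the deposited counts, whole numbers per gene, not normalized. The authors' steps, per the submitters' processing notes, drew on featureCounts 2.0.1, HISAT2 2.1.0 and Trim Galore 0.6.7 with build GRCm38. Settings, strand and annotation release were not given in the sources used here. Among counts of 1 to 20, between 68.3% and 74.4% per library were even. Such an excess arises where the 2 mates of a pair are counted singly, which was not tested further, so deposited counts may be up to 2 times the number of fragments, and halved counts were tried. Symbols and coordinates (1-based) came from GENCODE M21, in which 55227 IDs matched and 260 did not.

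Members, lists and tests were chosen with earlier results of these data known. Genes passing filterByExpr (20947) were scaled by TMM and tested with edgeR 4.0.16 in R 4.3.3, group as the only term, 2 residual degrees of freedom, adjusted over all genes. The standard error of a log2 fold change is its size over the square root of F. CPM per kb divides by the union of annotated exons, which understates genes with long rare exons. Alternatives are 11 fits, DESeq2 1.42.0 among them. Full values are given for called members, for the 2 smallest p and the highest level per length in each role, and for further members and related genes chosen after their values were seen. The procedure was also run on simulated data. There it recovered 11.9% of 67 genes with an absolute log2 fold change of 0.5. At values of 1 and 2 it recovered 74.2% and 98.5% of 66 genes each.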

Additional observations from a re-analysis of the deposited data

How the results depend on the processing

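The counts of calls depended on which libraries were used. Leaving out 1 library in turn gave between 865 and 7279 genes called over all genes, between 0 and 14 members higher and between 0 and 7 lower in frontal libraries, against 2657, 5 and 2 with all 4. With the parietal-interparietal pair summed, 791 genes were called over all genes, with 0 members higher and 0 lower (edgeR). With RLE size factors, no filter, halved counts and DESeq2 the counts stayed within 1.5 times, and all 7 members stayed called. With scaling by the total count only, Ykt6 lost its call, and of the genes called 984 were higher and 1606 lower (38% higher, where TMM gave 49.3%). Chmp6 was called with no filter and with halved counts, and not with RLE size factors, scaling by the total count only or DESeq2. Pdcd6 ran from −0.31 to 0.22 log2 units with 1 library left out and was called in opposite directions.

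Same-numbered libraries did not deviate together (correlation of deviations from the group means 0.018 over 20947 genes), so the number was not taken as a pairing. With the replicate number as a block, 3306 genes were called over all genes, and 6 members were higher and 2 lower, Chmp6 being the added one.

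With 2 libraries a group, a difference that missed the threshold was not shown to be absent. Sdcbp2 was not tested with halved counts, and Vps25 and Sdcbp2 had no DESeq2 adjusted p.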
